A study of Mus musculus with 18 samples.

Results

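Of the 47729 genes counted in the mouse colon, 9 that bind or carry zinc and manganese were followed through colitis-associated cancer (CAC). They are the metallothioneins Mt1, Mt2 and Mt4, the exporters Slc30a1 and Slc30a10, and the importers Slc39a4, Slc39a5, Slc39a8 and Slc39a14. Members were taken by name. Mt4 and Slc30a10 were picked on their large opposite changes between these same mice, so their values are given as a description and carry no test. The other 7 stand in the list as relatives in function.

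The 9 colons sequenced fell into 3 groups of 3. Mice 1 to 3, the naive WT group, carried the treatment label Control. WT CAC mice (mice 4 to 6) were WT animals that received azoxymethane (AOM), a carcinogen, as 1 injection of 10 mg/kg, followed by dextran sulfate sodium (DSS), which injures the colonic epithelium, in 3 cycles at 2.5%. Cldn2TG CAC mice (mice 7 to 9) carried the genotype label Claudin-2TG and had the same AOM-DSS course. In these transgenic animals the villin promoter drives the tight junction gene Cldn2 in the intestinal epithelium. No transgenic mouse without AOM-DSS was analysed here, and because the protocol text mentions AOM and DSS for controls as well, the naive group rests on the treatment label. The paper puts all its mouse lines on a C57BL/6 background and describes littermate controls and age- and sex-matched mice. Ages were not given in the sources used here. Nothing states how the mice were caged or whether RNA was pooled, so the p-values measure the spread between these 9 libraries.

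Each library held 14142711 to 22262546 counts, summed over 2 lanes. Lane totals ran from 4023472 to 11191378, unequal in mice 6, 7 and 9, and given those totals the spread of genes between the lanes of a library was close to sampling noise (chi-square per degree of freedom 0.995 to 1.06). Cldn2 itself stood at 119 to 137 CPM (counts scaled to library size) in WT CAC mice, at 208 to 251 in Cldn2TG CAC mice and at 192 to 259 in naive WT mice, so the transgenic group lay above WT CAC and within the naive range. Naive WT mouse 1 was the only library with Xist, at 214 CPM, and the only library without the Y-linked Ddx3y, at 0.149 CPM. The labels give no sex, while the paper describes its mice as sex-matched. Calls on named metal genes that were lost without mouse 1 are given beside them or in the counts of their list. Epithelial markers were abundant in every mouse, with Epcam at 2230.1 to 2712 CPM.

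Metallothioneins are small cysteine-rich proteins that hold zinc and copper and release them again, and the metal-sensing transcription factor MTF1 switches Mt1 and Mt2 on when free zinc rises. Proteins of the Slc30a (ZnT) family move zinc or manganese out of the cytosol, and those of the Slc39a (ZIP) family bring the metals in. In the gut, the balance of the families sets how much metal is absorbed from the lumen and how much is returned to it, and manganese leaves the body largely by way of bile and intestine.

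MTF1 reads short metal response elements, so the promoters of 5 members are shown: Mt1, Mt2 and Slc30a1 as its textbook targets, and Mt4 and Slc30a10 as the genes that moved furthest. RefSeq promoter windows were found for 7 of the 9 members, and Slc39a4 and Slc39a14 had no entry. Each window runs 5′ to 3′ on the gene's own strand, from 250 bases before to 50 after the start of the transcript, on build GRCm38.p6. Both strands were searched for TGCACNC and TGCGCNC, the core of the element, and matches are in capitals, with overlapping matches joined. All 5 genes lie on the plus strand, Mt1 at chr8:94178839-94179138, Mt2 at chr8:94172368-94172667, Mt4 at chr8:94136954-94137253, Slc30a1 at chr1:191906531-191906830 and Slc30a10 at chr1:185454598-185454897.
Mt1: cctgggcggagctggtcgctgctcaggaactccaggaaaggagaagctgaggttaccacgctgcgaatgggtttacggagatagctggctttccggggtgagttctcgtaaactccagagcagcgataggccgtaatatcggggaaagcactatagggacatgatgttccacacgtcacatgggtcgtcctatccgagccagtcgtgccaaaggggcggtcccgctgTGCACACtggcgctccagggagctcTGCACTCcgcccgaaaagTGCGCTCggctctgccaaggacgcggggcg
Mt2: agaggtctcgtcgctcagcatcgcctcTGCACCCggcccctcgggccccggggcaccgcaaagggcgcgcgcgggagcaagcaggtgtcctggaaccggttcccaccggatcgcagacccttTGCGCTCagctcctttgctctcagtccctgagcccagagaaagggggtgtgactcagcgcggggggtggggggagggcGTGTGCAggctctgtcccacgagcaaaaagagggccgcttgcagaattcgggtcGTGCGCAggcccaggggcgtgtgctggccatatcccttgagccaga
Mt4: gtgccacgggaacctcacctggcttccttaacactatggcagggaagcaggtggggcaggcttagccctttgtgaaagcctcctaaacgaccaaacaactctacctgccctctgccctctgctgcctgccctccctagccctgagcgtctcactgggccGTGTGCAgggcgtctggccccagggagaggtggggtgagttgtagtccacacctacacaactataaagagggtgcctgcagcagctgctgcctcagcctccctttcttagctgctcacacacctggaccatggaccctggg
Slc30a1: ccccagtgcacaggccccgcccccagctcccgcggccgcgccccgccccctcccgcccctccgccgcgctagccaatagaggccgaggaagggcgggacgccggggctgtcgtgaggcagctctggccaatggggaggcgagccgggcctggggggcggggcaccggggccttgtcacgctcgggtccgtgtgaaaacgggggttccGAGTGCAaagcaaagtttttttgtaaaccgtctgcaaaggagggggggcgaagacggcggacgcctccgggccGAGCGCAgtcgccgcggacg
Slc30a10: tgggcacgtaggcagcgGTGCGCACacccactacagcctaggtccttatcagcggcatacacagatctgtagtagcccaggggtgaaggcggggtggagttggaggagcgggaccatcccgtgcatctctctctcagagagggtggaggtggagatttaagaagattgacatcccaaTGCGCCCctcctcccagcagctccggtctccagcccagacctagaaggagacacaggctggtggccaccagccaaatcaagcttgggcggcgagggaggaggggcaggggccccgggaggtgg

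Mt2 held 4 matches, Mt1 held 3, Slc30a10 held 3 in 2 separate stretches, Slc30a1 held 2 and Mt4 held 1. At least 1 match was present in 25.9% of 32544 promoter windows of the same length, at least 2 in 6.19% and at least 4 in 0.298%. A match describes the letters of the window and does not show that a factor binds there.

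The metallothionein that changed furthest was Mt4, a member that is best known from stratified squamous epithelium such as skin and tongue. The gene is located at chr8:94137204-94139031 of GRCm38. Its counts were 1, 0 and 1 in the naive WT mice, 552, 1172 and 2098 in the WT CAC mice and 2, 9 and 8 in the Cldn2TG CAC mice. As CPM, WT CAC mice 4, 5 and 6 stood at 28.0, 51.8 and 140.5, and no other mouse was above 0.591. The WT CAC mice lay above all others without overlap. Naive WT and Cldn2TG CAC mice did not overlap either, but on 1 count in naive WT mice 1 and 3 against 2 in mouse 7. Those counts are under the limit of 3 used here.

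From the summed counts and depths, Mt4 was 2100-fold more abundant in WT CAC than in naive WT colon (95% interval 582 to 17400, from counting error only) and 168-fold more abundant than in Cldn2TG CAC colon (107 to 279). Between Cldn2TG CAC and naive WT the ratio was 12.5 (3.02 to 111), on 19 against 2 counts. None of these intervals holds the spread between mice, and they are no test. The fitted log2 fold changes were 10.94 (SE 1.10) for WT CAC against naive WT and -7.53 (SE 0.88) for Cldn2TG CAC against WT CAC. The first of these depends on the prior count, since naive libraries were close to 0, and is no bound. WT CAC mouse 6 carried the highest value, and without it the fitted differences were 10.07 and -6.63.

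**Figure D1:**
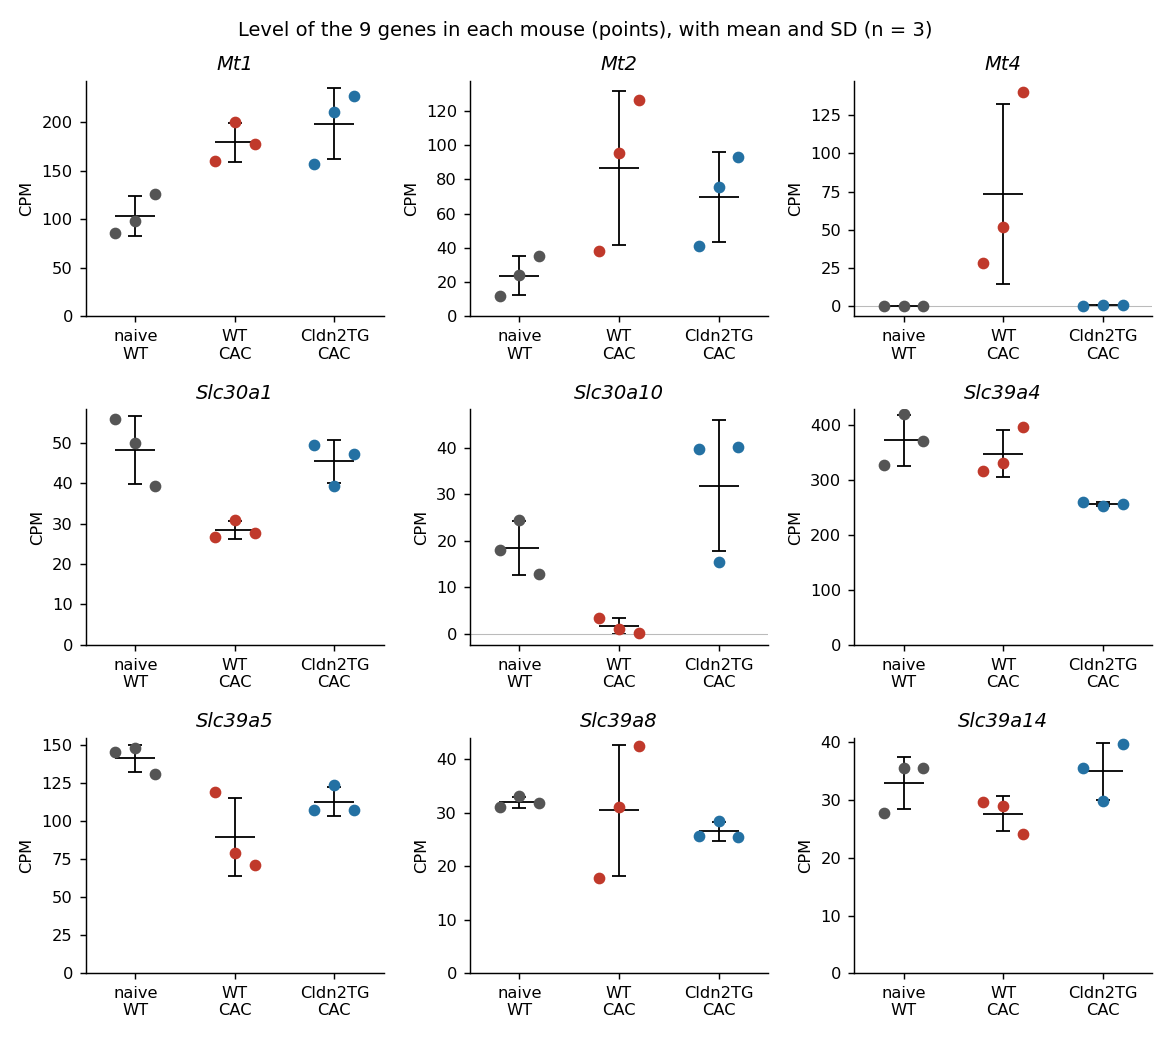
Level of each of the 9 genes in CPM (vertical axes from 0) by group, with 1 point per mouse and the mean and SD of 3 mice in black. Mt4 is seen in the 3 WT CAC mice at 28.0 to 140.5 CPM and lies near 0 elsewhere, whereas Slc30a10 is below 3.46 CPM in those mice and above 12.9 in all others.

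Mt1, the metallothionein with the highest mean level per length in each group, rose in both AOM-DSS groups. It is located at chr8:94179089-94180325. Its level was 85.8, 98.2 and 126 CPM in naive WT mice, 160.5, 200.2 and 178 CPM in WT CAC mice and 157, 211 and 227 CPM in Cldn2TG CAC mice. Every AOM-DSS mouse lay above every naive mouse, and the AOM-DSS groups overlapped. The share of counts on mitochondrial genes separated the mice in the same way, at 2.86 to 3.50% in naive WT, 3.54 to 4.69% in WT CAC and 4.58 to 5.76% in Cldn2TG CAC, and its part in the Mt1 and Mt2 values was not tested. The log2 fold change against naive WT was 0.82 (SE 0.16, adjusted p = 0.0187) in WT CAC and 0.95 (SE 0.17, adjusted p = 0.0101) in Cldn2TG CAC. Adjusted p-values are from edgeR's quasi-likelihood test, corrected over all genes tested. An exact two-sided permutation test of 3 mice against 3 gave 0.1 for either comparison, the smallest p it can give.

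Between the AOM-DSS groups, the Mt1 difference was 0.12 (SE 0.16, adjusted p = 0.742). The rise in Cldn2TG CAC was still called whichever single mouse was left out. That in WT CAC was not called without naive WT mouse 1, the Xist-bearing library (0.70, adjusted p = 0.0633), or without naive WT mouse 2 (0.78, adjusted p = 0.083).

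Mt2, the neighbour and close relative of Mt1, is located at chr8:94172618-94173567. It stood at 12.1, 24.3 and 35.3 CPM in naive WT mice, 38.0, 95.7 and 126 CPM in WT CAC mice and 41.3, 75.4 and 92.9 CPM in Cldn2TG CAC mice. As with Mt1, each AOM-DSS mouse was above each naive mouse, but the spread within the groups was wide. The log2 differences against naive WT were 1.88 (SE 0.53, adjusted p = 0.0568) in WT CAC and 1.55 (SE 0.50, adjusted p = 0.137) in Cldn2TG CAC, and neither passed the threshold of 0.05. DESeq2 called both, at adjusted p = 0.018 and 0.0327. Without WT CAC mouse 4, the lowest of its group, the first was called as well (2.24, adjusted p = 0.0182). Mt1 and Mt2 have similar sequences, and reads that match both genes could have been divided or dropped by the counting.

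Mtf1, the gene of the metal-sensing factor, gave log2 differences of 0.25 (SE 0.20, adjusted p = 0.409) in WT CAC and 0.30 (SE 0.17, adjusted p = 0.294) in Cldn2TG CAC against naive WT.

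The metallothioneins form a cluster on chromosome 8, in which the starts of Mt3, Mt2 and Mt1 follow that of Mt4 by 15.4, 35.4 and 41.9 kb. Mt3, known from brain and not among the 9 genes, lies next to Mt4 and had 1.89, 2.16 and 3.60 CPM in naive WT mice, 27.6, 38.6 and 187 CPM in WT CAC mice and 1.72, 0.963 and 1.03 CPM in Cldn2TG CAC mice. It rose in WT CAC against naive WT (log2 fold change 5.06, SE 0.88, adjusted p = 0.0189) and was lower in Cldn2TG CAC than in WT CAC (-6.12, SE 0.97, adjusted p = 0.0157). Neither call held without the filter on low counts (adjusted p = 0.075 and 0.0733), without any 1 of the naive mice (0.0581 to 0.0803) in the first comparison, or without any 1 of the transgenic mice (0.0638 to 0.0832) in the second. Mt4 and Mt3 thus separated the WT CAC mice from the other 6, and Mt2 and Mt1 did not.

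**Figure D2:**
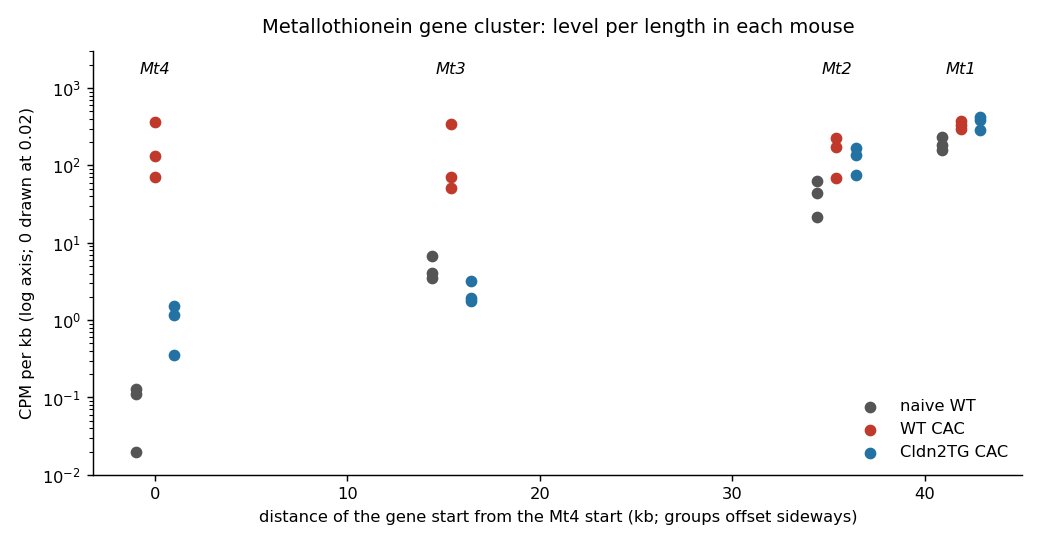
Level per length of the metallothionein genes in each mouse (CPM per kb, log axis, 0 drawn at 0.02) against the distance in kb of the gene start from the Mt4 start, with groups shifted sideways. Mt4 and Mt3 separate the 3 WT CAC mice from the other 6, while Mt2 and Mt1 place both AOM-DSS groups side by side.

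Slc30a10, the plasma membrane exporter of manganese, moved opposite to Mt4. The gene is located at chr1:185454848-185468762. Naive WT mice had 18.0, 24.4 and 12.9 CPM, WT CAC mice 3.45, 0.973 and 0.201 CPM and Cldn2TG CAC mice 39.9, 15.5 and 40.2 CPM. The WT CAC mice lay below all others without overlap, and the transgenic and naive mice overlapped. The WT CAC mean was 0.0836 of the naive mean, and the Cldn2TG CAC mean was 20.7 times the WT CAC mean.

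On the log2 scale, Slc30a10 differed by -3.52 (SE 0.74) in WT CAC against naive WT, by 4.30 (SE 0.81) in Cldn2TG CAC against WT CAC and by 0.79 (SE 0.43) in Cldn2TG CAC against naive WT. WT CAC mouse 4 held the highest value of its group, and without it the first and second became -4.82 and 5.59. WT CAC mouse 6 had 3 Slc30a10 counts and the highest Mt4 level, and mouse 4 had the most Slc30a10 and the least Mt4. A non-coding gene on the opposite strand, Gm2061, overlaps Slc30a10 and held 458 counts over the 9 mice against 2668. Whether the counting used strand is not given in the sources used here, so reads of the pair cannot be told apart.

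Slc30a1, the ubiquitous plasma membrane zinc exporter, fell in WT CAC and stood near the naive level in Cldn2TG CAC. It is located at chr1:191906767-191913247. Its levels were 55.7, 49.9 and 39.2 CPM in naive WT mice, 26.7, 30.9 and 27.6 CPM in WT CAC mice and 49.5, 39.4 and 47.2 CPM in Cldn2TG CAC mice. All WT CAC mice were below the other 6. The log2 fold change was -0.74 (SE 0.15, adjusted p = 0.021) for WT CAC against naive WT and 0.65 (SE 0.14, adjusted p = 0.0226) for Cldn2TG CAC against WT CAC. For Cldn2TG CAC against naive WT it was -0.09 (SE 0.14, adjusted p = 0.748). These comparisons share the WT CAC mice, or the naive mice, and are not independent of each other.

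The Slc30a1 calls rested on few mice. The fall in WT CAC lost its call without naive WT mouse 1 (-0.62, adjusted p = 0.07), naive WT mouse 2 (-0.72, 0.0846) or WT CAC mouse 6 (-0.72, 0.0556). The difference between the AOM-DSS groups kept its call without WT CAC mouse 4 only. Without each of the other 5 mice, namely 5 to 9, it was 0.59 to 0.75 with an adjusted p of 0.0549 to 0.0941.

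Slc39a4, the apical importer that takes up dietary zinc and is mutated in acrodermatitis enteropathica, was lower in the transgenic mice. It is located at chr15:76612385-76616852, on the minus strand. Naive WT mice had 328, 421 and 371 CPM, WT CAC mice 317, 331 and 397 CPM and Cldn2TG CAC mice 259.8, 254 and 258 CPM. The transgenic mice lay close together and below all WT mice. Slc39a4 fell in Cldn2TG CAC against naive WT (-0.53, SE 0.10, adjusted p = 0.0113), and this call held whichever single mouse was left out. Against WT CAC the difference was -0.46 (SE 0.13, adjusted p = 0.0565). It was called by DESeq2 (adjusted p = 0.0112), with library size scaling (-0.57, adjusted p = 0.0309), with all 9 mice in the fit (adjusted p = 0.0328) and without WT CAC mouse 4 (-0.51, adjusted p = 0.0224). WT CAC and naive WT differed by -0.07 (SE 0.14, adjusted p = 0.766).

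Slc39a5, an importer on the basolateral face of enterocytes, is located at chr10:128395934-128401224 on the minus strand. Its levels were 145, 148 and 131 CPM in naive WT mice, 119, 78.9 and 71.5 CPM in WT CAC mice and 108, 124 and 107 CPM in Cldn2TG CAC mice. Both AOM-DSS groups lay below the naive group without overlap, and they overlapped each other. The differences from naive WT were -0.63 (SE 0.19, adjusted p = 0.064) in WT CAC and -0.32 (SE 0.10, adjusted p = 0.0713) in Cldn2TG CAC, and neither passed. Without WT CAC mouse 4, Slc39a5 was lower in WT CAC than in naive WT (-0.89, adjusted p = 0.00157) and than in Cldn2TG CAC (0.58, adjusted p = 0.0149, for the latter minus WT CAC). DESeq2 called both differences from naive WT, at adjusted p = 0.0219 and 0.0453, as did the fit without a filter (0.0428 and 0.0409). Slc39a5 overlaps Ankrd52 on the opposite strand, so part of its reads is uncertain.

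The importers of both zinc and manganese, Slc39a8 and Slc39a14, gave no call in any comparison, in the main fits or under the alternatives tried. Slc39a8 (chr3:135825279-135888572) had 31.1, 33.1 and 31.8 CPM in naive WT mice, 17.9, 31.0 and 42.5 CPM in WT CAC mice and 25.7, 28.5 and 25.4 CPM in Cldn2TG CAC mice. The naive and transgenic mice were tightly grouped, and the WT CAC mice spread over both sides of them. Its log2 differences were -0.05 (SE 0.27, adjusted p = 0.922) for WT CAC against naive WT and -0.26 (SE 0.11, adjusted p = 0.142) for Cldn2TG CAC against naive WT. Slc39a14 (chr14:70303469-70351425, minus strand) had 27.8, 35.5 and 35.6 CPM in naive WT mice, 29.7, 29.0 and 24.2 CPM in WT CAC mice and 35.5, 29.8 and 39.7 CPM in Cldn2TG CAC mice. The differences of Slc39a14 were -0.23 (SE 0.14, adjusted p = 0.305) and 0.32 (SE 0.15, adjusted p = 0.266) for WT CAC against naive WT and Cldn2TG CAC against WT CAC.

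Counted together, 2 of the 7 members not picked on their change were called in WT CAC against naive WT, Mt1 higher and Slc30a1 lower, where 15.0% of the 15437 genes tested were called. In Cldn2TG CAC against WT CAC, 1 of 7 was called, Slc30a1 higher, against 9.54% of 14888 genes. In Cldn2TG CAC against naive WT, 2 of 7 were called, Mt1 higher and Slc39a4 lower, against 10.0% of 15013 genes. The called members make shares of 28.6%, 14.3% and 28.6%, each on 7 genes, and no test of a share was made. At an unadjusted p under 0.05 the members numbered 4, 2 and 5 (57.1%, 28.6% and 71.4%), where 32.6%, 23.5% and 26.0% of all genes tested passed. The median log2 difference of the 7 was -0.07, 0.12 and -0.09, and that of all genes tested 0.02, 0.01 and 0.00. All 9 members passed the filter on low counts in the first and second comparisons, and 8 in the third, where Mt4 was too low to be fitted.

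**Figure D3:**
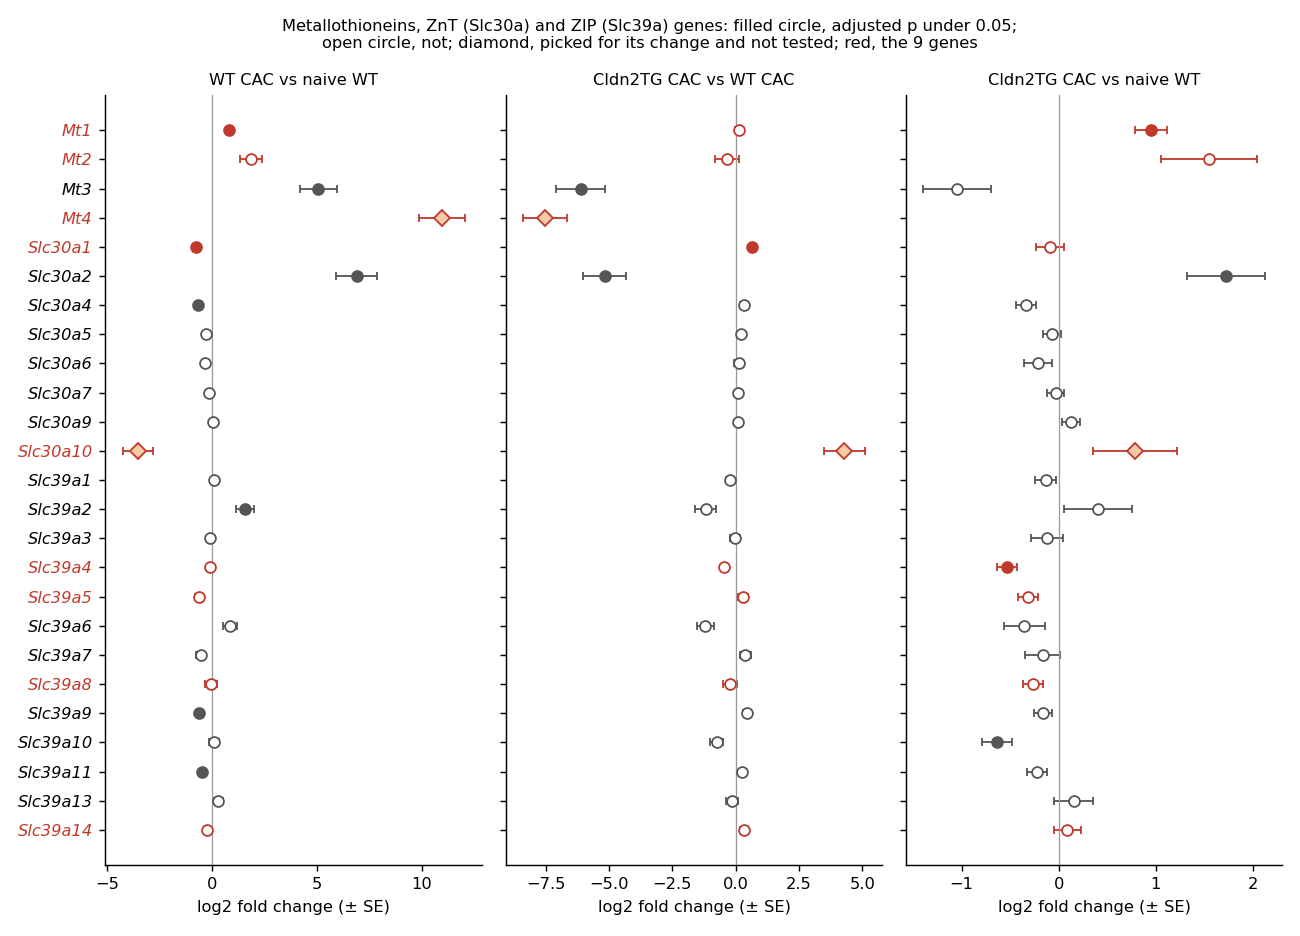
Log2 fold change with SE (horizontal axes, a different scale in each panel) of the metallothioneins, ZnT and ZIP genes that passed the filter, in the 3 comparisons. Among the 9 genes, in red, circles are filled for Mt1 and Slc30a1 in the first panel, Slc30a1 in the second and Mt1 and Slc39a4 in the third, and diamonds mark Mt4 and Slc30a10, which were not tested.

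By mean level per length, Mt1 was the first of the 9 genes in all groups, at 191 ± 38.2 CPM per kb (SD, n = 3) in naive WT, 332 ± 36.9 in WT CAC and 367 ± 67.4 in Cldn2TG CAC. In naive WT mice the order went on with Slc39a4 at 168 ± 20.9, Slc39a5 at 66.0 ± 4.25, Mt2 at 43.0 ± 20.9 and Slc30a1 at 9.21 ± 1.60 CPM per kb. Slc39a8, Slc30a10 and Slc39a14 followed at 4.18, 3.16 and 3.12, and Mt4 was last at 0.0795. Mt1 overlapped Slc39a4, Slc39a5 overlapped Mt2, and Slc39a8, Slc30a10 and Slc39a14 overlapped along the order, so these neighbours did not differ beyond their spread.

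In WT CAC, Mt4 took the second place, at 188 ± 152 CPM per kb, and overlapped both Mt1 and Slc39a4. In WT CAC mouse 6, Mt4 stood at 359 CPM per kb and Mt3 at 348, both above Mt1 at 329. Slc30a10 took the last, at 0.264 ± 0.291, below Slc39a14 in every mouse. In Cldn2TG CAC, Mt4 was last again at 1.01 ± 0.595, and Slc30a10 took the sixth place at 5.46 ± 2.43, overlapping Slc39a8. Mt2 rose in rank from the fourth place in naive WT to the second in Cldn2TG CAC, where it overlapped Slc39a4.

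**Figure D4:**
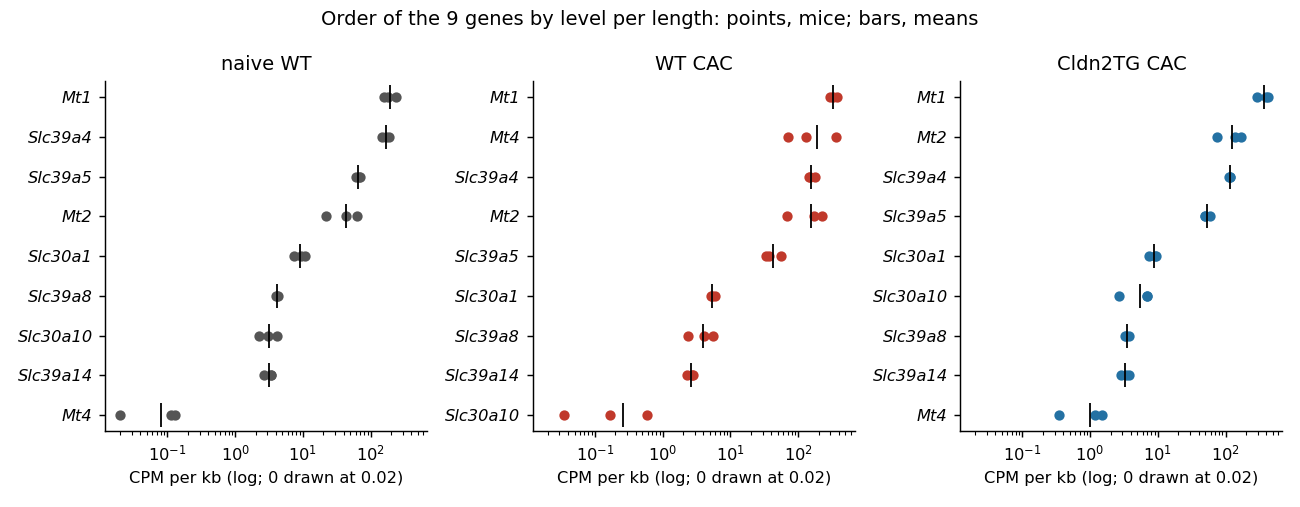
The 9 genes ordered by mean level per length in each group (CPM per kb, log axis, 0 drawn at 0.02), with points for the 3 mice and bars for the mean. Mt4 moves from the last place in naive WT to the second in WT CAC and back to the last in Cldn2TG CAC, and Slc30a10 is last in WT CAC alone.

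Genes whose levels followed a member most closely were sought by the root mean square difference of mean-centred log2 CPM over the 9 mice, among 15236 genes with a mean of at least 10 counts. Near to Mt4 were Notum, a secreted Wnt inhibitor (0.72), and the Wnt-responsive factor Sp5 (1.10). Notum stood at 0.130 to 0.151 CPM in naive WT mice, 20.4 to 98.3 in WT CAC mice and 0.608 to 0.886 in Cldn2TG CAC mice. Slc30a10 was nearest to 2310079G19Rik (0.73), to its antisense neighbour Gm2061 (0.79) and to Rims4 (0.82). 2310079G19Rik had 37.8 to 69.0 CPM in naive WT mice, 1.61 to 5.74 in WT CAC mice and 42.9 to 69.3 in Cldn2TG CAC mice.

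The nearest genes of the other members lay at smaller distances. For Mt1 they were Uox, Insl6 and Gm9949 (0.12 to 0.18), and for Mt2 Mettl7a3, Gm13203 and Ceacam10 (0.40 to 0.47). Slc30a1 was nearest to Ap1ar, Klf3 and Sema6a (0.11 to 0.12) and Slc39a4 to Ttc3, Cyp4f40 and Parp1 (0.11 to 0.12). For Slc39a5 they were Aqp11, Plekha5 and Nexn, for Slc39a8 Fam213a, Pde3b and Fbxo10, and for Slc39a14 Trim46, Sp3 and Pcsk7. These pairings come from the same 9 mice that were ranked and carry no test.

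Markers of other cells moved with Mt4 and Slc30a10. Of all genes tested, 15.0% were called in WT CAC against naive WT and 9.54% between the AOM-DSS groups. Of 5 Paneth cell markers, 4 were higher in WT CAC than in naive WT (Lyz1, Mmp7, Itln1 and Pla2g2a), and the sum of the 5 was 25.5 to 34.5 CPM in naive WT, 182 to 1762 in WT CAC and 37.9 to 51.7 in Cldn2TG CAC. The fifth, Ang4, had 18.1, 17.4 and 21.9 CPM in naive WT mice and 2.39, 8.71 and 33.0 in WT CAC mice, so mice 4 and 5 lay below the naive group and mouse 6 above it (log2 difference -0.37, adjusted p = 0.787). Lyz1, the Paneth lysozyme, reached 128, 172 and 998 CPM in mice 4, 5 and 6, in the order of their Mt4 levels. Mt2, Slc39a4 and Slc39a8 had the same order in these mice. Of 15 squamous markers 5 could be tested, and Krt14, Krt13 and Krt4 were higher in WT CAC, with Krt14 at 12.2 to 28.1 CPM against 0.747 to 1.91 in naive WT. In WT CAC against naive WT, Krt13, Krt4 and the Paneth marker Mmp7 passed the filter on low counts through the WT CAC mice alone. Of the 15, 11 had no more than 3 counts in any naive WT mouse, 7 in any WT CAC mouse and 9 in any Cldn2TG CAC mouse, the defining genes Krt5, Trp63 and Ivl in all 3 groups. Among genes too low to be tested, Krt6a had 5, 15 and 35 counts, Dsg3 9, 58 and 37 and Dsc3 17, 12 and 3 in WT CAC mice 4, 5 and 6, and no other mouse had more than 2. The squamous sum was 6.72 to 7.83 CPM in naive WT, 26.7 to 68.0 in WT CAC and 9.97 to 11.9 in Cldn2TG CAC. The Paneth count of 4 fell to 1 without naive WT mouse 1 or 3 and to 0 without mouse 2, and the squamous count of 3 was 2 without any 1 of the naive mice. Without the filter on low counts they were 1 and 6. Where Mt4 was lower, in Cldn2TG CAC against WT CAC, 1 of 5 Paneth markers (Lyz1) and 2 of 5 squamous markers (Krt13 and Krt14) were called, all lower. The Lyz1 call was lost without the filter and without mouse 5, 7, 8 or 9, and the squamous count was 0 without mouse 8, 5 without mouse 4 and 5 without the filter. The part of these cells in the Mt4 result was not tested.

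Beside Slc30a10, 2 of 6 surface colonocyte markers were lower in WT CAC than in naive WT and higher in Cldn2TG CAC than in WT CAC, Aqp8 and Car4. The sum of the 6 was 4366 to 6701 CPM in naive WT, 1549 to 4738 in WT CAC and 5321 to 7682 in Cldn2TG CAC. Car4 stood at 716, 462 and 283 CPM in mice 4, 5 and 6, in the order of their Slc30a10 levels, an order that Slc39a5 and Slc39a14 shared. Of 6 goblet cell markers 1 was called, Clca1, lower in WT CAC than in naive WT and higher in Cldn2TG CAC than in WT CAC. Its means were 3984 CPM in naive WT, 2010 in WT CAC and 4014 in Cldn2TG CAC. Of 6 small intestine markers 2 could be tested, Fabp2 and Fabp6, and both were higher in Cldn2TG CAC than in WT CAC. Of the 8 general epithelial markers edgeR called 0 in either comparison (3 and 2 at an unadjusted p under 0.05) and DESeq2 called 1 in each, Krt18 and Cdx1, with a sum of 11706 to 12680.2 CPM in naive WT, 11651 to 13523 in WT CAC and 12899 to 15823 in Cldn2TG CAC. The 2 surface colonocyte calls in WT CAC against naive WT fell to 0 without any 1 of the naive mice and to 1 without WT CAC mouse 5 or 6, and were 4 without mouse 4 and 0 without the filter on low counts. Between the AOM-DSS groups they fell to 0 without mouse 5, 8 or 9 and to 1 without mouse 7, and were 5 without mouse 4. The part of surface colonocytes, goblet cells and small intestine genes in the Slc30a10 result was not tested. In whole colon, fewer cells of a type and less RNA per cell cannot be told apart.

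Immune cells also moved between the groups. Macrophage markers summed to 43.5 to 82.4 CPM in naive WT, 97.1 to 204 in WT CAC and 24.5 to 49.1 in Cldn2TG CAC, and 4 of 6 (Mrc1, Lyz2, Cd68 and Csf1r) were higher in WT CAC than in either other group. T cell markers summed to 2.34 to 6.04, 11.5 to 22.6 and 2.84 to 6.35 CPM in the same order, with 4 of 5 called both times (Cd8a, Cd4, Trac and Cd3d). In WT CAC against naive WT, the macrophage and T cell counts were 1 and 0 without naive WT mouse 1, 0 and 0 without mouse 2 and 0 and 3 without mouse 3. Both were 0 between the AOM-DSS groups without transgenic mouse 8 or 9. B and plasma cell markers summed to 40.4 to 94.7 CPM in naive WT, 225 to 457 in WT CAC and 36.5 to 106 in Cldn2TG CAC. Of 5 tested, Jchain and Mzb1 were higher in WT CAC than in naive WT, and Jchain, Cd79a and Mzb1 were lower in Cldn2TG CAC than in WT CAC, counts that were 1 without mouse 2 and 4 without mouse 1 in the former and 0 without mouse 5, 6, 8 or 9 in the latter. Neutrophil markers summed to 137 to 208 CPM in naive WT, 300 to 377 in WT CAC and 302 to 351 in Cldn2TG CAC. Most of the sum was Ly6g, with means of 180, 314 and 328 CPM, which was not lower in the transgenic mice. S100a8, S100a9 and Csf3r passed the filter on low counts through the WT CAC mice alone. All 4 neutrophil markers that could be tested were called in WT CAC against naive WT, and 2 of 3 (S100a9 and Csf3r, lower) between the AOM-DSS groups. Without the filter these counts were 1 and 0, the first was 0 without mouse 2, 3 or 5 and 1 without mouse 1 or 6, and the second was 0 without mouse 7, 8 or 9 and 1 without mouse 5 or 6. Fibroblast markers summed to 292 to 422 CPM in naive WT, 446 to 1119 in WT CAC and 181 to 260.4 in Cldn2TG CAC. Of 6, Col3a1 and Col1a2 were lower in Cldn2TG CAC than in WT CAC, a count of 0 without the filter or without mouse 6, 8 or 9, of 1 without mouse 5 or 7 and of 4 without mouse 4. Of 5 endothelial markers Plvap, Cdh5 and Pecam1 were lower there, of which Plvap alone was called without mouse 5, 7, 8 or 9. The part of all these cells in the changes of Mt4, Slc30a10 and Slc30a1 was not tested.

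Other markers moved between the transgenic and the naive mice, where Mt1 was higher and Slc39a4 lower. Of all genes tested there, 10.0% were called. All 7 enteric neuron and glia markers were lower in Cldn2TG CAC than in naive WT, and their sum was 31.3 to 50.1 CPM in naive WT, 11.9 to 27.1 in WT CAC and 12.7 to 18.2 in Cldn2TG CAC. The count of 7 was 4 without mouse 1, 3 or 9 and 2 with all 9 mice in the fit. Of 5 endothelial markers, Kdr, Plvap, Cdh5 and Pecam1 were lower in the transgenic mice, with a sum of 47.2 to 54.6 CPM in naive WT, 46.7 to 57.0 in WT CAC and 20.5 to 26.2 in Cldn2TG CAC, and the count of 4 was 2 without mouse 2 or 8. Of 6 smooth muscle markers Myh11 and Acta2 were lower, and the count of 2 was 1 without mouse 3 or 7, 5 without mouse 2 and 0 with all 9 mice. Single markers of other lists were called as well, Lyz1, Krt8 and Ly6g higher and Col1a2 and Alb lower. Krt8, the epithelial keratin, was not called without any 1 of mice 1, 2, 3, 8 and 9, Col1a2 not without mouse 1, 3 or 7, and Alb not without mouse 8. The part of these cells in the Mt1 and Slc39a4 results was not tested.

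**Figure D5:**
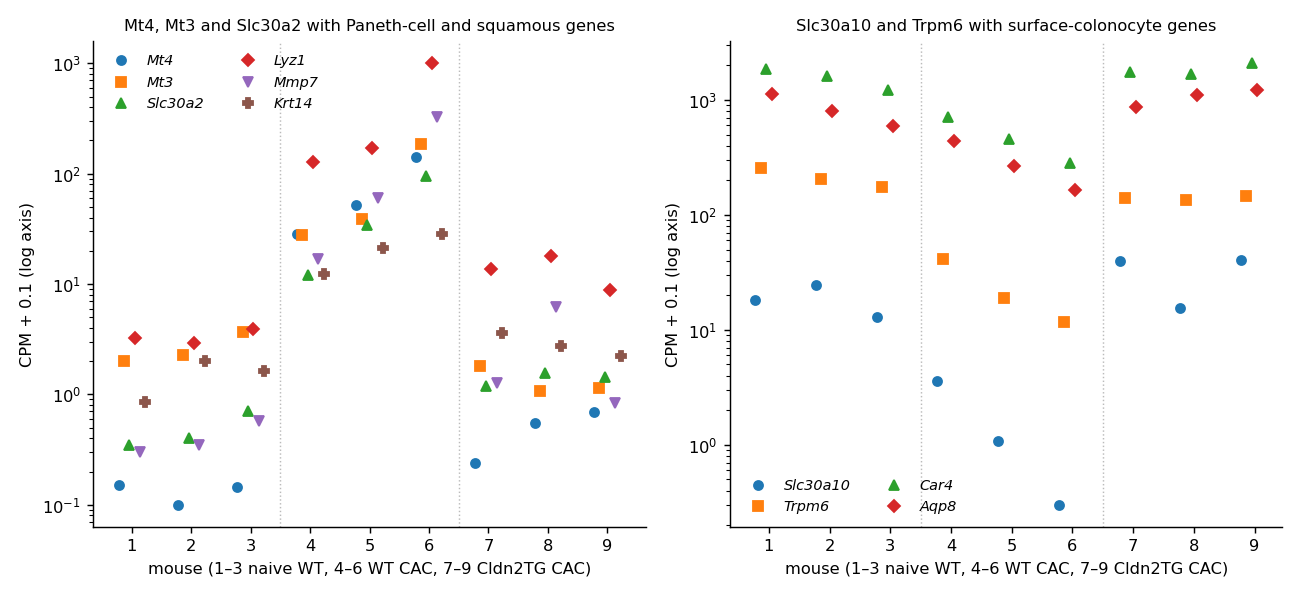
CPM plus 0.1 (log axes) in each of the 9 mice of Mt4, Mt3 and Slc30a2 with the Paneth cell genes Lyz1 and Mmp7 and the squamous gene Krt14 (left), and of Slc30a10 and Trpm6 with the surface colonocyte genes Car4 and Aqp8 (right). The WT CAC mice 4 to 6 are the highest on the left and the lowest on the right, with mouse 6 at the extreme in every gene.

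Around the members, 50 further metal-handling genes were examined, of which 47, 45 and 42 could be tested in the 3 comparisons. In WT CAC against naive WT 17 were called (36.2%, against 15.0% of all genes), 10 higher and 7 lower, with a median log2 difference of -0.01. In Cldn2TG CAC against WT CAC 10 were called (22.2%, against 9.54%), 3 higher and 7 lower, with a median of 0.08. The third comparison, Cldn2TG CAC against naive WT, had 6 called (14.3%, against 10.0%), 2 higher and 4 lower, with a median of -0.05. The first count was 0 without naive WT mouse 2 and the second was 0 without mouse 8 or 9 of the transgenic group. The third was 0 without transgenic mouse 8 and with all 9 mice in the fit.

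Within the ZnT family of the 2 exporters described, Slc30a2, a vesicular zinc transporter of secretory cells including Paneth cells, changed the way Mt4 did. It had 0.249, 0.301 and 0.608 CPM in naive WT mice, 12.1, 34.4 and 94.8 CPM in WT CAC mice and 1.10, 1.47 and 1.33 CPM in Cldn2TG CAC mice. Its naive WT counts were 5, 6 and 14, so its folds against naive WT rest on few counts. In those comparisons it passed the filter on low counts through the WT CAC or the Cldn2TG CAC mice alone. The log2 fold change was 6.90 (SE 0.97, adjusted p = 0.012) in WT CAC against naive WT, and without naive WT mouse 2 the call was lost (6.75, adjusted p = 0.0626). Between the AOM-DSS groups it was -5.18 (SE 0.85, adjusted p = 0.0176), a call lost without a filter on low counts (adjusted p = 0.0793) and without any of mice 5, 7, 8 and 9 (0.0581 to 0.0853). It was also higher in the transgenic than in the naive mice (1.72, SE 0.40, adjusted p = 0.0236), a call lost with all 9 mice in the fit (0.385) and without any of mice 1, 2, 8 and 9 (0.0658 to 0.0953). Slc30a4 fell with Slc30a1 in WT CAC (-0.66, SE 0.12, adjusted p = 0.0179), a call lost without naive WT mouse 2 or 3 (0.0774 and 0.0626). Of the 8 other ZnT genes, 6 were tested and Slc30a2 and Slc30a4 were called in that comparison, while Slc30a10's relatives Slc30a5, Slc30a6, Slc30a7 and Slc30a9 were not.

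Within the ZIP family of the 4 importers described, 9 of 10 other genes were tested in each comparison. In WT CAC against naive WT, Slc39a9 (-0.62, adjusted p = 0.0292) and Slc39a11 (-0.48, adjusted p = 0.0299) fell, and Slc39a2 rose from 0.651 to 0.896 CPM in naive WT mice to 1.68 to 3.75 in WT CAC mice (1.58, adjusted p = 0.0406). All 3 of these calls were lost without any 1 of the naive mice (adjusted p from 0.0762 to 0.141) and without WT CAC mouse 6 (0.0571 to 0.101), and those of Slc39a9 and Slc39a2 without WT CAC mouse 5 as well (0.0526 and 0.0556). Between the AOM-DSS groups edgeR called 0 of the other ZIP genes, with 4 at an unadjusted p under 0.05, where Slc39a6 gave a log2 difference of -1.20 (adjusted p = 0.0577). Slc39a6 was called by DESeq2, and by edgeR with library size scaling, without the filter, with all 9 mice in the fit and without WT CAC mouse 4, but not without any of the other 5 mice. Slc39a10 was lower in Cldn2TG CAC than in naive WT (-0.64, adjusted p = 0.0269), a call lost on leaving out any single mouse (0.0505 to 0.0958).

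For manganese, 9 genes of iron and manganese transport were tested beside Slc30a10, Slc39a8 and Slc39a14. Trpm6, an epithelial channel for magnesium and other divalent cations, had 258, 205 and 176 CPM in naive WT mice, 41.0, 18.9 and 11.7 CPM in WT CAC mice and 139, 134 and 147 CPM in Cldn2TG CAC mice. Its groups did not overlap, and the order of the WT CAC mice was that of Slc30a10. It fell in WT CAC against naive WT (-3.13, SE 0.45, adjusted p = 0.0116), a call lost without naive WT mouse 2 (-3.16, adjusted p = 0.0579), and was higher in Cldn2TG CAC than in WT CAC (2.52, SE 0.42, adjusted p = 0.0162), a call lost without a filter on low counts (adjusted p = 0.0889) and without any of mice 5, 7, 8 and 9 (0.0664 to 0.0724). Against naive WT, Cldn2TG CAC mice had less Trpm6 (-0.60, SE 0.13, adjusted p = 0.0213), a call lost with all 9 mice in the fit (0.401) and without any of mice 1, 8 and 9 (0.0528 to 0.0821). Slc11a1, the metal pump of macrophage phagosomes, was higher in WT CAC than in naive WT (1.57, adjusted p = 0.0371) and lower in Cldn2TG CAC than in WT CAC (-2.31, adjusted p = 0.0146). The first of these calls was lost without any 1 of mice 1, 2, 3, 5 and 6 (adjusted p from 0.08 to 0.111) and the second without mouse 5, 8 or 9 (0.052 to 0.0858). The other 7 genes, Slc11a2 and Slc40a1 among them, gave no call in these comparisons.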

How the data were processed

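The authors extracted total RNA from the colon, sequenced it on an Illumina NovaSeq6000 and counted reads per gene with featureCounts. The paper names TopHat2 as the aligner, while the submitters' processing notes list HISAT2, featureCounts, Subread and the build GRCm38; versions and the strand setting are not given in the sources used here. The deposited values are raw whole-number counts for 47729 genes in 18 columns, 2 lanes for each of 9 libraries, and no column was left out.

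Lanes were summed per mouse (14142711 to 22262546 counts). Groups came from the treatment and genotype labels. Symbols were taken from GENCODE M21, which lists 47310 of the identifiers, and coordinates from the count table. Each comparison was fitted with edgeR 4.0.16 (R 4.3.3) on its 6 mice, with TMM scaling, filterByExpr (minimum count 10, minimum total 15), robust quasi-likelihood dispersion and two-sided tests. Benjamini-Hochberg adjustment ran across every gene in the fit, and genes under an adjusted p of 0.05 were called. CPM used TMM factors over 9 mice. Likeness used log2 CPM with a prior count of 2. A value of 3 counts was taken as the limit that a count of 0 allows, and intervals on counts cover counting error only. The fit was tested on simulated data.

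The 9 members, the gene lists and the comparisons were chosen with earlier results of these data known, and Mt4 and Slc30a10 were given no test. Genes were named by rule: all members, the other metal genes called in any comparison, the most abundant or counted genes of a marker list, and the 3 nearest genes to each member, of which 1 is not reported here. The alternatives were DESeq2 1.42.0, library size scaling, no filter (at least 1 count), all 9 mice in 1 fit, and leaving out each mouse. Protein sequences were not used here. Summaries and plots used Python 3.11.15, pandas 2.3.3 and matplotlib 3.10.9.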

Additional observations from a re-analysis of the deposited data

How the results depend on the processing

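No paired analysis was possible because the groups share no replicate numbers. Leaving out 1 mouse left 2 in its group, and moved the number of genes called from 2310 to between 135 and 4080 (WT CAC against naive WT), from 1421 to between 58 and 2894 (Cldn2TG CAC against WT CAC) and from 1501 to between 525 and 1383 (Cldn2TG CAC against naive WT). The calls among the 7 tested members moved between 0 and 4 and between 0 and 3 and stayed at 2 in the same order, and those among the other metal genes between 0 and 21, 0 and 20, and 0 and 5. Fewer mice lowered most of these counts, and leaving out WT CAC mouse 4 raised those of the first and second comparisons.

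DESeq2 called 4, 2 and 4 of the 7 members in the 3 comparisons, where edgeR called 2, 1 and 2. With all 9 mice in the fit the members called in the first and second were 4 and 2, and library size scaling gave 2 in the second. All 9 mice in the fit gave 2136 genes in Cldn2TG CAC against WT CAC, with 16 other metal genes, and 445 genes in Cldn2TG CAC against naive WT, with 0 other metal genes. No filter gave 2567 genes in the latter. The cause was not tested.

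Among the members, the direction turned under at least 1 alternative in 6 of 26 differences, and among the other metal genes in 29 of 134, none of which was called by the edgeR fits reported. Over the fits without 1 mouse, Slc39a4 in WT CAC against naive WT ran from -0.18 to 0.02 and Slc39a8 from -0.37 to 0.22. In Cldn2TG CAC against WT CAC, Mt2 ran from -0.68 to 0.06 and Slc39a8 from -0.48 to 0.11. In Cldn2TG CAC against naive WT, Slc30a1 ran from -0.22 to 0.04 and Slc39a14 from -0.01 to 0.19, with -0.03 under library size scaling. No member that was called, and neither Mt4 nor Slc30a10, changed direction under these alternatives.

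With 3 mice per group an exact permutation test cannot go below 0.1. At 14142711 or more counts per mouse, levels near 0.2 CPM rest on about 3 counts, which limits Mt4 outside WT CAC and Slc30a10 in WT CAC mouse 6.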

Other observations

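Proteins that withhold metal from microbes were examined beside the metallothioneins. S100a8 and S100a9, whose product calprotectin binds zinc and manganese, passed the filter on low counts through the WT CAC mice alone and had edgeR adjusted p = 0.0327 and 0.0342 in WT CAC against naive WT, calls lost without the filter (0.131 and 0.138). S100a8 had 1, 0 and 6 counts in naive WT mice, 11, 418 and 200 in WT CAC mice and 2, 4 and 0 in Cldn2TG CAC mice. WT CAC mouse 4 was thus near the other groups in S100a8, whereas its Mt4 count of 552 was far above theirs. Of the 5 genes in this list 4 were called in that comparison (S100a8, S100a9, Ltf and Hamp), against 15.0% of all genes tested. Ltf and Hamp also passed the filter through the WT CAC mice alone. Of the 3 that could be tested between the AOM-DSS groups 2 were called, against 9.54% of all genes tested. These were S100a9 and Ltf, both lower in Cldn2TG CAC, the former not without the filter (0.154). Naive WT levels of these genes rest on few counts, so no fold is given. Without any 1 of the naive mice 0 of the 5 were called in WT CAC against naive WT, and without WT CAC mouse 5 or 6 the count was 1. Between the AOM-DSS groups the count was 0 without any 1 of mice 5 to 9 and 5 without mouse 4.

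Among 10 enzymes that hold zinc, copper or manganese, 4 were called in WT CAC against naive WT and 4 in Cldn2TG CAC against WT CAC. The shares of all genes tested that were called there were 15.0% and 9.54%. Arg1, the manganese-dependent arginase, had 0.299, 0.151 and 0.347 CPM in naive WT mice, 1.47, 40.4 and 44.0 CPM in WT CAC mice and 0.207, 0.203 and 0.295 CPM in Cldn2TG CAC mice. It passed the filter on low counts through the WT CAC mice alone. Arg1 was called in both comparisons (edgeR adjusted p = 0.0265 and 0.0333), though not without the filter (0.108 and 0.143). Pcx, the pyruvate carboxylase that carries manganese, fell in WT CAC (-0.58, adjusted p = 0.0453) and was higher in Cldn2TG CAC than in WT CAC (0.66, adjusted p = 0.019). Glul, another manganese enzyme, fell in WT CAC (-0.54, adjusted p = 0.0285). Sod3, the extracellular superoxide dismutase, was lower in Cldn2TG CAC than in WT CAC (-1.76, adjusted p = 0.0115) and than in naive WT (-0.94, adjusted p = 0.0249), the latter call being lost with all 9 mice in the fit (0.0799) and without mouse 1, 3, 8 or 9 (0.0581 to 0.0797). Of the 6 copper transport genes Atox1 was called in WT CAC against naive WT (0.45, adjusted p = 0.0498), a call lost with library size scaling (0.0558), without the filter (0.0562) and without any 1 of mice 1, 2, 3, 4 and 6 (0.0541 to 0.178). Without any 1 of the naive mice 0 of the 10 enzymes were called in WT CAC against naive WT, without WT CAC mouse 5 also 0, and without mouse 6 the count was 1. Between the AOM-DSS groups it was 2 without mouse 5 or 7 and 0 without mouse 8 or 9, and 8 without mouse 4. In Cldn2TG CAC against naive WT 3 of the 9 enzymes tested were called, against 10.0% of all genes, Sod3 and Arg2 lower and Sod1 higher. Sod1 had means of 270 CPM in naive WT and 344 in Cldn2TG CAC, and Arg2 had 5.10 and 2.07. The Sod1 call was lost with library size scaling, with all 9 mice in the fit and without mouse 1, 2, 3, 8 or 9. That of Arg2 was lost with all 9 mice in the fit and without mouse 1, 2, 7 or 8.

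Metallothionein genes are also known to respond to glucocorticoids and oxidants. The shares of all genes called were 15.0% in WT CAC against naive WT, 9.54% between the AOM-DSS groups and 10.0% in Cldn2TG CAC against naive WT. Of 6 glucocorticoid target genes, Per1 was higher (1.03) and Fkbp5 lower (-0.81) in WT CAC than in naive WT, and Per1 was lower in Cldn2TG CAC than in WT CAC (-0.76, adjusted p = 0.0226), a call lost without mouse 5, 8 or 9. In WT CAC against naive WT, Per1 was not called without mouse 1, 3 or 5, and Fkbp5 not without mouse 2 or with all 9 mice in the fit. Of 7 targets of the oxidant-sensing factor NRF2, Hmox1 was higher in WT CAC than in naive WT (1.85, adjusted p = 0.0246) and lower in Cldn2TG CAC than in WT CAC (-1.81, adjusted p = 0.0203). Hmox1 was not called in the first of these without mouse 1, 2, 3, 5 or 6, or in the second without any 1 of mice 5 to 9. In Cldn2TG CAC against naive WT, edgeR and DESeq2 each called 0 genes of both lists, with 2 of 6 and 0 of 7 at an unadjusted p under 0.05. The glucocorticoid target Tsc22d3 was called there with library size scaling or without the filter, and Sgk1 and Fkbp5 without mouse 9. The part of glucocorticoids and oxidants in the metallothionein results was not tested.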
